A study of Mus musculus with 2 samples.

Results

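The 48 genes described here act in the response to DNA damage, in DNA repair and downstream of the transcription factor p53. They come from a list of gene symbols, which was matched to the table, and all 48 were found among its 47719 genes. Of these members, 7 belong to end joining, 5 are damage kinases or their partners, 5 act on chromatin at breaks, 13 belong to homologous recombination and crosslink repair, 3 to single-strand break repair, 3 are p53 and its regulators and 12 are p53 targets. RNA was sequenced from keratinocytes of mouse tails (C57BL/6J, 8 weeks of age, cultured for 3 days), with a single library for each genotype, Pp6fl/fl and K5.Pp6fl/fl. Cells of both genotypes carry the floxed allele of Pp6, the catalytic subunit gene of protein phosphatase 6 (PP6), named Ppp6c in the table. The sample titles are PP6fl/fl mKC and, for K5.Pp6fl/fl, cKO mKC, where cKO is read here as conditional knockout. K5 is a short name of the basal keratin 5, read here as standing for its promoter. The recombinase and the number of mice per culture are not given in the labels.

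A double-strand break can be rejoined directly by end joining, in which the Ku heterodimer holds the ends and recruits the kinase DNA-PK, or copied from the sister chromatid by homologous recombination. The kinases ATM, ATR and DNA-PK phosphorylate the histone variant H2AX beside the break and activate checkpoint kinases and p53, which in turn switches on genes of arrest, repair and apoptosis. PP6 is known to bind DNA-PK and to remove the phosphate from H2AX, both steps that act on proteins and that transcript levels do not measure.

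The libraries held 19374767 (Pp6fl/fl) and 17361259 (K5.Pp6fl/fl) estimated reads in genes, and the members took 0.363% and 0.372% of them. Levels are given in CPM, depth-scaled read counts, and a fold divides the CPM of K5.Pp6fl/fl by that of Pp6fl/fl. The range in brackets after a fold is its 95% exact interval, which covers counting error only. With 1 library per genotype there is no spread between cultures, no test and no p-value, so a difference between the libraries is not shown to be a difference between the genotypes. Ppp6c stood at 55.5 and 40.7 CPM, a fold of 0.733 (0.665 to 0.806), the lower value being that of K5.Pp6fl/fl. The log2 fold change that the authors deposited for Ppp6c was -0.86, a larger difference in the same direction. It may rest on another measure, since deposited changes can follow FPKM, a count divided by transcript length. For Chek2 the deposited value was 0.79, against 0.80 by FPKM and 0.15 by counts on the log2 scale. The part of length in the Ppp6c value was not tested. The table has no values per exon, so transcripts that lost only a part of the gene count too. The 8 keratinocyte markers summed to 57970 CPM in Pp6fl/fl and 54476 CPM in K5.Pp6fl/fl. Of these, Krt14 stood at 30702 and 28559 CPM and Krt5 at 17801 and 17100 CPM. The directions were mixed, with the interval below 1 for 5 markers, above 1 for 2 and including 1 for 1. The lowest fold was that of Trp63, at 0.776 (0.759 to 0.793). The highest was that of Krt15, at 1.51 (1.11 to 2.08), on only 3.72 and 5.64 CPM. The summed levels of 8 melanocyte markers were 14.8 and 22.1 CPM, of 8 fibroblast markers 4.44 and 3.91 CPM, and of 6 endothelial markers 1.24 and 1.9 CPM. The immune markers Ptprc, Cd3e, Cd207, Lyz2 and H2-Ab1 had no reads, and of the 8 in that list, which summed to 29.9 and 25.4 CPM, Cd68 took nearly all. The part of these other cell types in the members' values was not tested. In such bulk RNA, fewer cells of a type and less RNA per cell cannot be told apart.

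The module as a whole was nearly level between the libraries. All 48 members had at least 1 CPM in a library (expressed). Of them 25 had a log2 ratio above 0 and 23 below, with a median of 0.01, where the median of all 12325 expressed genes was -0.01 and 46.8% were above 0. At 2-fold or more with an interval that left out 1, there was 1 member higher and 0 lower, beside 0.811% and 0.195% of all expressed genes. At least 25% higher, with such an interval, were 2 members (Nhej1 and Plk3), and at least 20% lower was 1 (Sesn1), beside 7.62% and 4.09% of expressed genes. Those are ratios of equal size in either direction, and below they are called the smaller size. The interval lay above 1 for 9 members and below 1 for 7, beside 16.6% and 17.4% of expressed genes. For 34 members the whole interval lay inside this smaller size, beside 49.7% of expressed genes. These shares depend on how many reads a gene has, and most members are well covered.

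**Figure D1:**
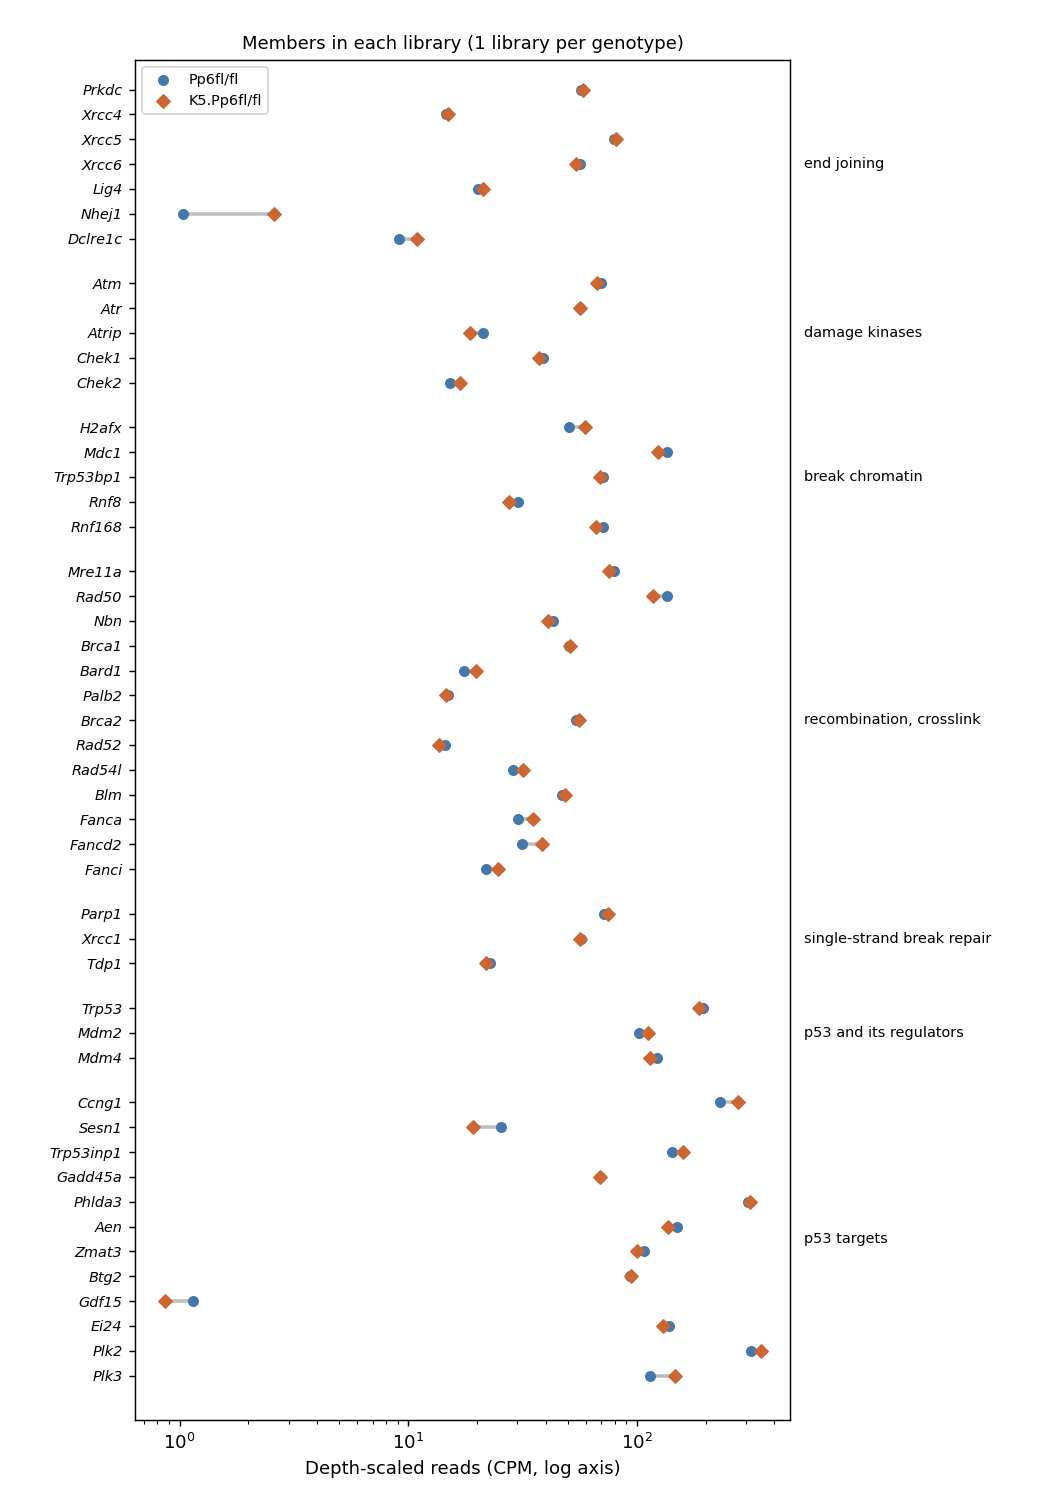
Level of each of the 48 members in CPM (log axis), with a circle for the Pp6fl/fl library and a diamond for the K5.Pp6fl/fl library, grouped by role. The marks nearly coincide for most genes; Nhej1 and Gdf15, both near 1 CPM, and Sesn1 and Plk3 are visibly apart.

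Since p53 targets hold the largest folds in both directions among members above 5 CPM, the promoters of 3 of them and of Mdm2 are shown, as RefSeq gives them on GRCm38.p6 from 250 bases before to 50 after the transcript start. Of the 48 members 41 were matched to this table by symbol. Capitals mark a match to the p53 half-site, which reads alike on both strands; a pair of half-sites makes up a p53 response element. They are Ccng1 (chr11:40755237-40755536, minus strand), the second listed start of Sesn1 (chr10:41887189-41887488, plus strand), Mdm2 (chr10:117710709-117711008, minus strand) and Plk3 (chr4:117133914-117134213, minus strand), which has no match in this window.
Ccng1: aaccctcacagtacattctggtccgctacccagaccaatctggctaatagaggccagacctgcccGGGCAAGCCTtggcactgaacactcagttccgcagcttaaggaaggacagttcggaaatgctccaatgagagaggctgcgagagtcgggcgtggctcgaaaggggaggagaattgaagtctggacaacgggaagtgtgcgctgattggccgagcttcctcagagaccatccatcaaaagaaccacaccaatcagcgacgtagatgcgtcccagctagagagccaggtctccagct
Sesn1: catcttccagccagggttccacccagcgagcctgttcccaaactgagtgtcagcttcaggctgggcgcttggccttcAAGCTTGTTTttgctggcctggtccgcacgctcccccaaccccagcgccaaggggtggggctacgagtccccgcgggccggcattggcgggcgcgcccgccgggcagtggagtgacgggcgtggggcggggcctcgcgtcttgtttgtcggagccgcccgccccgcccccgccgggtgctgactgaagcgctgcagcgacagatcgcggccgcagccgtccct
Mdm2: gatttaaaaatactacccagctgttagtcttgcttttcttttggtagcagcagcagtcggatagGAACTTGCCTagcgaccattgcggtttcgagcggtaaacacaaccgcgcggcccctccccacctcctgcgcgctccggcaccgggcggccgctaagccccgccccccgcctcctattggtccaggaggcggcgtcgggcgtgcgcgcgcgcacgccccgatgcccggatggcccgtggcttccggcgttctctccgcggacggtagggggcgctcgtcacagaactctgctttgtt
Plk3: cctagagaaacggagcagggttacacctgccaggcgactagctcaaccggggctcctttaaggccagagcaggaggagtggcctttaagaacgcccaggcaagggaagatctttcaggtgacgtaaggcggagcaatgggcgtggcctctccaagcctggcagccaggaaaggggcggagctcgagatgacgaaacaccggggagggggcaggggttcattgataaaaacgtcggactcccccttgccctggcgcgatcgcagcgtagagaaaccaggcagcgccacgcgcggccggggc

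The half-site was found in 6 of 13 windows of p53 targets (46.2%) and in 2 of 4 windows of p53 and its regulators, where 8.36% of 32851 windows of all genes hold it. The 6 windows belong to 5 genes, since 1 site of Aen lies in both of its overlapping windows. A pair of half-sites with 0 to 13 bases between them was in 0 of the 47 member windows and in 0.0731% of all windows. Targets with a match went both ways in the RNA, with Ccng1 above 1, Gadd45a at 1.01 and Sesn1, Aen and Ei24 below 1. Plk3, with the highest fold of the targets, has no match between these ends. A match describes letters only, and known p53 elements of several targets lie outside this stretch.

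Among the 12 p53 targets, genes that p53 activates, the differences were mixed in direction, and the levels in Pp6fl/fl ran from 1.14 CPM (Gdf15) to 316 CPM (Plk2). By interval 4 were higher (33.3%), 4 lower (33.3%) and 4 included 1, beside 16.6% and 17.4% of all expressed genes above and below 1. Such shares depend on how many reads a gene has, and most of the targets are well covered. The median log2 ratio of the 12 targets was 0.01. Plk3, a Polo-like kinase of the stress response, had 2205 reads in Pp6fl/fl and 2554 in K5.Pp6fl/fl, or 114 and 147 CPM, a fold of 1.29 (1.22 to 1.37). Ccng1, the cyclin G1 gene, one of the classical p53 targets, had 230 and 278 CPM, a fold of 1.21 (1.16 to 1.26). Plk2, a Polo-like kinase related to Plk3, was the most abundant member, at 316 and 348 CPM, a fold of 1.1 (1.06 to 1.14). The cell death regulator Trp53inp1 stood at 143 and 159 CPM, a fold of 1.11 (1.05 to 1.17). These 4 members were higher in K5.Pp6fl/fl, and Plk3 alone among them reached the smaller size.

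On the other side stood Sesn1, which encodes sestrin 1, an inhibitor of mTORC1 signalling and a stress protein. It had 493 and 333 reads, 25.5 and 19.2 CPM, a fold of 0.752 (0.652 to 0.866), the only member at least 20% lower. Aen, an apoptosis-enhancing nuclease, had 150 and 137 CPM, a fold of 0.917 (0.868 to 0.968). Zmat3, an RNA-binding zinc finger protein, had a fold of 0.923 (0.866 to 0.984). Ei24, a membrane protein of the endoplasmic reticulum, had a fold of 0.944 (0.892 to 0.999), whose upper end touches 1. All of them but Sesn1 differed by under 10% in CPM.

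The remaining targets did not differ beyond counting error. Phlda3, which restrains AKT signalling, stood at 305 and 313 CPM, a fold of 1.02 (0.988 to 1.06). Gadd45a, a stress sensor of arrest and repair, was at 68.7 and 69.1 CPM, and the antiproliferative gene Btg2 at 93.0 and 94.2 CPM, each with a fold of 1.01. The stress cytokine gene Gdf15 had 22 and 15 reads, a fold of 0.759, and its interval (0.366 to 1.53) is too wide to show a difference of this size. Per length the order was different: in deposited FPKM, which divides by transcript length, Phlda3 was the highest member of the module at 270 and 277, and Gdf15 the lowest at 1.06 and 0.805.

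The p53 gene itself did not differ beyond counting error, and the intervals of its regulators lay on opposite sides of 1. Trp53 had 195 and 187 CPM, a fold of 0.958 (0.914 to 1.0). Mdm2, the ubiquitin ligase that degrades p53 and is itself a p53 target, stood at 102 and 112 CPM, a fold of 1.1 (1.03 to 1.17). Mdm4, its partner that inhibits p53, had 123 and 114 CPM, a fold of 0.926 (0.872 to 0.983). The mouse pseudogenes Trp53-ps and Mdm4-ps had 0 reads and 1 read in each library.

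Of the wider set of 43 expressed p53 targets outside the module, 3 were at least 25% higher and 2 at least 20% lower, and the median log2 ratio was 0.01, the same as in the module. Their intervals lay above 1 for 11 (25.6%) and below 1 for 5 (11.6%), beside the 16.6% and 17.4% of all expressed genes. The arrest gene Cdkn1a, which encodes p21, stood at 362 and 413 CPM, a fold of 1.14 (1.1 to 1.18). It lies outside the naming rule. At 5 CPM or more, Psrc1 (1.52-fold, 1.27 to 1.83) and Ckap2 (1.32-fold, 1.19 to 1.46), both genes of spindle-associated proteins, were higher. Sat1, which acetylates polyamines, was at 0.759 (0.717 to 0.804), and the adenylate kinase Ak1 at 0.791 (0.676 to 0.923).

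**Figure D2:**
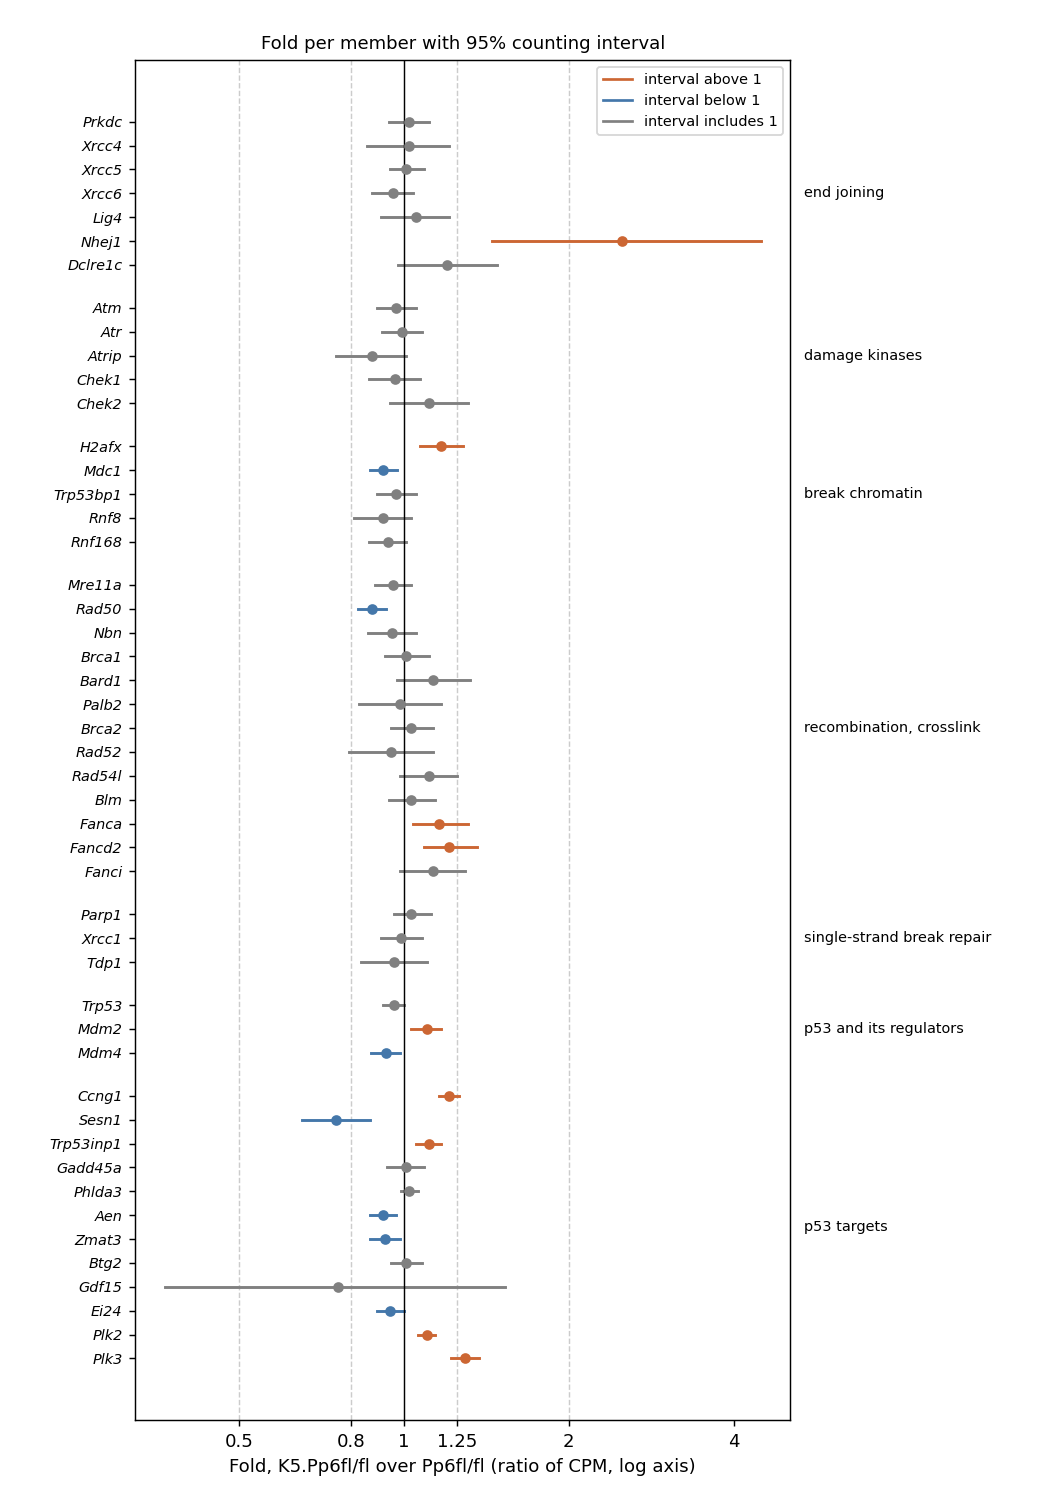
Fold of each member, K5.Pp6fl/fl over Pp6fl/fl (log axis), with its 95% counting interval; orange intervals lie above 1, blue below 1 and grey include 1, and dashed lines mark 2-fold and, nearer to 1, 20% lower and 25% higher. Most intervals sit between the inner lines, Nhej1 stands alone above 2, and the p53 targets hold intervals on both sides of 1.

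In end joining, the intervals of 6 of 7 members included 1, where 34.0% of all expressed genes left it out in either direction. Prkdc, the catalytic subunit of DNA-PK and the kinase that PP6 binds, had 1105 and 1014 reads, 57.1 and 58.3 CPM, a fold of 1.02 (0.937 to 1.11). Xrcc5 and Xrcc6, the larger and the smaller Ku subunit, had folds of 1.01 (0.942 to 1.09) and 0.954 (0.873 to 1.04). Xrcc6 shares 344 exon bases with Desi1 on the opposite strand, and their sum was on the other side of 1, at 1.02 (0.956 to 1.09). The ligase Lig4 was at 1.05 (0.908 to 1.21) and its scaffold Xrcc4 at 1.02 (0.855 to 1.21). Dclre1c, which encodes the nuclease Artemis, had 9.1 and 10.9 CPM, a fold of 1.2 (0.974 to 1.48), and its sum with Suv39h2, on the opposite strand, was at 1.09, with an interval that included 1 (lower end 0.944). Without Nhej1 the summed end joining transcripts stood at 238 and 240 CPM.

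Nhej1, which encodes XLF, a filament protein that bridges the ends for ligation, was the exception. It had 20 reads in Pp6fl/fl (exact Poisson interval 12.2 to 30.9) and 45 in K5.Pp6fl/fl (32.8 to 60.2), or 1.03 and 2.59 CPM. The fold was 2.5 (1.45 to 4.48), and by FPKM, at 1.38 and 3.47, it was 2.51. It is the least abundant repair member, and in GENCODE no other gene shares exon bases with it. In the authors' deposited table Nhej1 is the only member marked significant, with a log2 fold change of 1.27 and an FDR of 0.00724, where 1.35% of expressed genes are so marked. Plk3, Ccng1 and Sesn1 have a lower FDR there but no mark, so the mark does not follow the FDR alone. On 20 reads the size for Nhej1 is loosely fixed. Its log2 ratio of 1.01, taken after adding 0.5 CPM to both values, was 0.60 after adding 2 CPM. At a floor of 5 CPM the gene is left out.

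Of 13 other expressed end joining genes 0 were at least 25% higher and 2 at least 20% lower, and the median log2 ratio was -0.11. Shld2, a subunit of the shieldin complex that protects ends from resection, stood at 9.61 and 7.08 CPM, a fold of 0.736 (0.581 to 0.929). Shld1, of the same complex, had 3.0 and 1.9 CPM, a fold of 0.633 (0.4 to 0.987). It lies below the level of the naming rule and was chosen after its value was seen.

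None of the 5 damage kinases and partners differed beyond counting error, where 34.0% of expressed genes did. Atm, which responds to double-strand breaks, stood at 69.5 and 67.2 CPM, a fold of 0.967 (0.894 to 1.05). Atr, which responds to exposed single-stranded DNA, had 56.7 and 56.4 CPM, a fold of 0.993 (0.911 to 1.08). Its partner Atrip had a fold of 0.873 (0.752 to 1.01), and it shares 1147 exon bases with the nuclease gene Trex1 on the same strand, so the split of reads between them is uncertain. Their sum was at 0.899 (0.793 to 1.02). The checkpoint kinase genes Chek1 and Chek2 were at 0.961 (0.864 to 1.07) and 1.11 (0.944 to 1.31). Among 24 other damage signalling genes 2 were at least 25% higher and 0 at least 20% lower. These were the CDK-activating phosphatase genes Cdc25b, at 41.8 and 56.7 CPM (1.36-fold, 1.24 to 1.49), and Cdc25c, at 3.41 and 5.87 CPM (1.72-fold, with an interval above 1), which promote entry into mitosis.

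Of the 5 genes that act on chromatin at breaks, H2afx was higher and Mdc1 lower by interval, where 34.0% of expressed genes left out 1. H2afx, which encodes H2AX, had 980 and 1030 reads, 50.6 and 59.2 CPM, a fold of 1.17 (1.07 to 1.28). Only polyadenylated RNA was captured, so a transcript form without a poly(A) tail, known for histone genes, is not in these values. Mdc1, the reader of phosphorylated H2AX, was the other member outside counting error, at 135 and 124 CPM, a fold of 0.916 (0.865 to 0.97). The ubiquitin ligases Rnf8 and Rnf168, which mark the chromatin for repair factors, were at 0.914 (0.809 to 1.03) and 0.933 (0.862 to 1.01). Rnf8 shares 1542 exon bases with the read-through model Gm28043, and their sum was at 0.999 (0.914 to 1.09). Trp53bp1, whose protein binds the marked chromatin and favours end joining, stood at 71.2 and 68.8 CPM, a fold of 0.967 (0.894 to 1.05).

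In homologous recombination and crosslink repair, 10 of 13 intervals included 1, where 34.0% of expressed genes left it out. The group's summed level was 568 CPM in each library. By counts the break sensor genes all lay below 1. Rad50 had 135 and 118 CPM, a fold of 0.874 (0.824 to 0.926). Its partners Mre11a and Nbn were at 0.954 (0.886 to 1.03) and 0.952 (0.86 to 1.05). Only for Rad50 did the interval leave out 1. Mre11a shares 154 exon bases with Ankrd49 on the opposite strand, and their sum was at 0.981 (0.922 to 1.04). By FPKM the fold of Mre11a was 1.06, above 1. Brca1, Brca2 and Palb2, which load the recombinase, were at 1.01 (0.922 to 1.11), 1.03 (0.945 to 1.13) and 0.982 (0.827 to 1.17). Bard1, the partner of Brca1, stood at 17.5 and 19.8 CPM, a fold of 1.13 (0.969 to 1.32). The annealing protein gene Rad52 (0.947, 0.793 to 1.13), the translocase gene Rad54l (1.11, lower end 0.982) and the helicase gene Blm (1.03, 0.94 to 1.14) also included 1. Rad54l shares 1184 exon bases with Lrrc41 on the opposite strand, and their sum, most of it Lrrc41 reads, stood at 0.937 (0.883 to 0.993), below 1, so the direction of Rad54l is uncertain.

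The 3 Fanconi anaemia genes, which unhook DNA crosslinks, were all above 1. Fancd2 had 612 and 667 reads, 31.6 and 38.4 CPM, a fold of 1.21 (1.09 to 1.36). Fanca had 30.3 and 35.3 CPM, a fold of 1.16 (1.04 to 1.31). Fanci, which pairs with Fancd2, had 22.0 and 24.8 CPM, a fold of 1.13 (0.983 to 1.29). Fanca shares 920 exon bases with Zfp276 and Fanci 921 with Polg, each on the opposite strand, and the library kit does not keep the strand, which also holds for the other overlaps given here. Summed with those genes they stood at 1.04 (0.956 to 1.13) and 0.976 (0.921 to 1.03). The Fanci sum was mostly Polg reads (2094 in Pp6fl/fl and 1778 in K5.Pp6fl/fl), and Zfp276 had 572 and 468 reads. Fancd2 is not limited by overlap in this way, since its overlapping gene Fancd2os had 1 read in Pp6fl/fl and 0 in K5.Pp6fl/fl. Of 15 other Fanconi genes 1 was at least 25% higher, the ubiquitin-conjugating enzyme gene Ube2t that modifies Fancd2 protein (6.1 and 8.86 CPM, 1.45-fold, 1.14 to 1.86), and 10 had a log2 ratio below 0. Of 32 other recombination genes 0 reached the smaller size in either direction; the most abundant were Sfr1, at 0.902 (0.874 to 0.932), and Rpa1, at 0.968 (0.921 to 1.02).

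For the 3 genes of single-strand break repair every interval included 1, where 34.0% of expressed genes left it out. Parp1, which senses nicks and makes poly(ADP-ribose), stood at 72.0 and 74.6 CPM, a fold of 1.03 (0.959 to 1.12). The scaffold gene Xrcc1 had 57.0 and 56.4 CPM, a fold of 0.989 (0.906 to 1.08). Tdp1, which removes trapped topoisomerase from DNA ends, stood at 22.9 and 22.0 CPM, a fold of 0.96 (0.835 to 1.1). In a list of 35 genes named for base and nucleotide excision and mismatch repair, 2 were at least 25% higher and 0 at least 20% lower. They were the glycosylase gene Neil3 (5.63 and 9.2 CPM, 1.63-fold, 1.27 to 2.1) and the methyltransferase gene Mgmt (14.5 and 18.5 CPM, 1.27-fold, 1.08 to 1.5). Mgmt was in the list but belongs to none of the named pathways.

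Many repair genes are expressed in a phase of the cell cycle, so lists of replication and mitosis genes were set beside them. The 28 mitosis genes had a median log2 ratio of 0.54, and 27 of them were at least 25% higher. The 36 replication genes had a median of -0.06, with 1 at least 25% higher, the ribonucleotide reductase gene Rrm2 (1.3-fold, 1.24 to 1.36). The medians of the member groups ran from -0.10 for break chromatin to 0.05 for homologous recombination. With overlapping genes summed, which takes in reads of genes outside the module, the latter was -0.03, and end joining had the highest median, at 0.07. The part of the mitosis genes' difference in the values of H2afx, Fancd2, Cdc25b, Cdc25c, Psrc1 and Ckap2 was not tested.

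**Figure D3:**
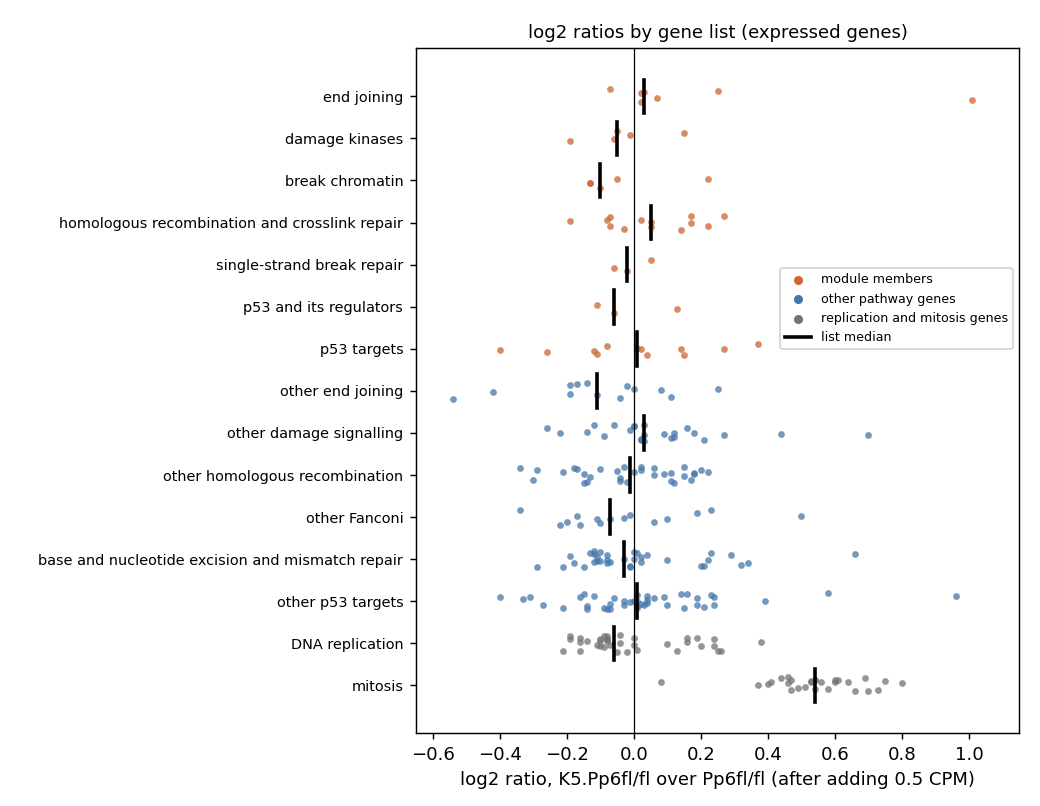
log2 ratio of each expressed gene, K5.Pp6fl/fl over Pp6fl/fl after adding 0.5 CPM, by list, with a bar at the list's median; a point is 1 gene, spread vertically at random. The 7 member groups and the other pathway lists have medians between -0.11 and 0.05, and the mitosis list lies apart at 0.54.

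The E2F motif TTTCCCGC, of a factor family that drives genes of the start of replication, was also looked for on both strands of the promoter windows. It was in 5 of 47 windows of members (10.6%), those of Bard1, Brca2, Chek2, Mdc1 and Xrcc6, where 1.07% of the windows of all genes hold it. A second form of the motif, TTTGGCGC, was in 0 of the 47 windows and in 0.514% of all. The CCAAT box, CCAAT, was in 26 of the 47 (55.3%) and in 37.4% of all. The folds of the 5 genes with TTTCCCGC ran from 0.916 for Mdc1 to 1.13 for Bard1.

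For some members the deposited FPKM gave another picture than the counts. FPKM divides a count by an effective length, which can be recovered by setting the deposited columns against each other, and this length depends on how the reads were shared among a gene's transcripts. For Chek2 the implied length was 1962 bases in Pp6fl/fl and 1260 in K5.Pp6fl/fl, and its FPKM went from 7.73 to 13.4, a fold of 1.74, while its reads numbered 294 in each library. For Trp53bp1 the implied length went the other way, from 5219 to 7495 bases, and the FPKM from 13.6 to 9.19, a fold of 0.675. GENCODE lists 6 transcripts of 328 to 2276 bases for Chek2 and 19 of 409 to 9621 bases for Trp53bp1, so both lengths lie within the annotated range. Trp53bp1 shares 2130 exon bases with Tubgcp4 on the opposite strand.

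These 2 were the members whose implied length was at least 25% longer or 20% shorter, beside 5.98% of expressed genes. Parp1, Brca2, Rnf168 and Aen came next, each with a longer implied length in K5.Pp6fl/fl; that of Parp1 went from 2690 to 3358 bases. Their folds by FPKM, at 0.831, 0.847, 0.772 and 0.778, were lower than by counts. After adding 0.5 FPKM to both values and with no interval required, 4 members were at least 25% higher and 4 at least 20% lower by FPKM, beside 12.1% and 9.35% of all genes with at least 1 FPKM in a library. Counts, where an interval leaving out 1 was required, gave 2 and 1. Without the added 0.5, the FPKM fold of Gdf15 (0.762) also lay below that limit. For Nhej1, Plk3, Sesn1, Ccng1, H2afx and Prkdc the measures gave folds within 0.02 of each other.

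**Figure D4:**
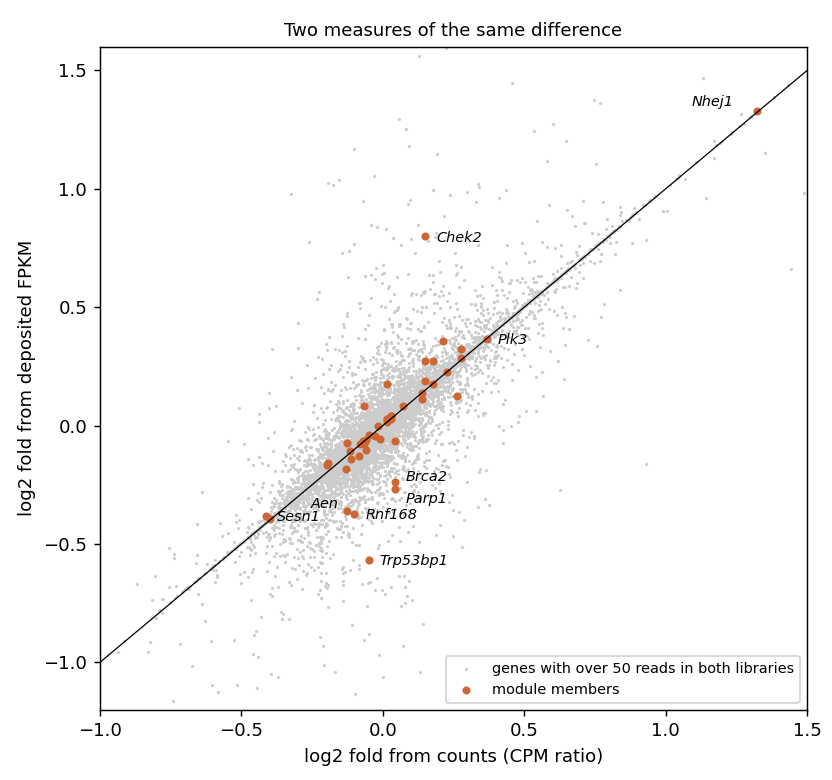
log2 fold from deposited FPKM against log2 fold from counts, K5.Pp6fl/fl over Pp6fl/fl; orange points are members, grey points genes with over 50 reads in both libraries, some of which lie outside the axes, and the line marks equal values. Chek2 sits far above the line and Trp53bp1 far below it, while Nhej1, Plk3 and Sesn1 lie on or close to it.

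The authors' deposited table lists an FDR under 0.05 for 8 members, beside 14.4% of expressed genes. In it the lowest FDR was that of Plk3 (9.45e-08), followed by Ccng1 (1.08e-05), Sesn1 (0.00499), Nhej1, Fancd2 (0.0204), H2afx (0.0278), Rad50 (0.0301) and Plk2 (0.0453). The sources used here do not give the dispersion behind the FDR of the authors' deposited table, which had no replicate to draw on. By counts 6 of these genes were higher and 2, Sesn1 and Rad50, lower in K5.Pp6fl/fl.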

How the data were processed

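The authors deposited 1 table with, per gene and library, an estimated count and an FPKM value, and with a p-value, an FDR and a log2 fold change for each gene. Per the submitters' processing notes, RSEM, edgeR and build mm8 (mouse) were used, with no version or role stated. The sources used here do not give the aligner or the annotation release. Estimated counts were deposited after multiplication by 1 constant per library: under 100 reads, 97.3% (Pp6fl/fl) and 97.4% (K5.Pp6fl/fl) were whole, within 0.01 reads, after division by 0.945742 and 1.05737. The counts so recovered were rounded and used throughout; the scaling was found only in the table, where the design had assumed unscaled counts. The FPKM values of the authors divide by an effective length that can differ between libraries. The log2 fold changes and p-values of the authors' deposited table were copied, not recomputed.

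Symbols were matched by Ensembl ID for 47219 of 47719 genes; genes without one held 0.105% and 0.106% of reads. The named build differs from the reference at hand, which served only for symbols, overlaps, transcript lengths and promoters. Reads were scaled by TMM (edgeR 4.0.16, R 4.3.3), with 0.5 CPM added before log2 ratios were taken. A gene is expressed at 1 CPM or more in a library. Fold intervals are exact conditional binomial (Clopper-Pearson) intervals at 95% (SciPy 1.17.1). Their code was checked on simulated Poisson counts, which hold counting error only. Over all expressed genes the intervals typically reached 0.096 on the log2 scale to either side at 50 CPM or more. From 5 to 50 CPM the typical reach was 0.215, and below 5 CPM it was 0.726. Without molecular identifiers, reads can be copies of 1 molecule, which the intervals leave out. Calls required 2-fold, or at least 25% higher or 20% lower, and an interval leaving out 1, and no test between libraries was made. The members and lists were chosen with earlier results of these data known. The text names all members and, in other lists, genes past this smaller size at 5 CPM or more (at most 4 per direction) or else the 2 most abundant; other names are said to be so or serve as markers or overlapping genes. Alternatives were other scalings (DESeq2 1.42.0 size factors among them), pseudocounts, floors, FPKM, the counts as deposited, and sums with overlapping genes.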

Additional observations from a re-analysis of the deposited data

How the results depend on the processing

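Across 10 alternatives Nhej1, Plk3 and Sesn1, the members at least 25% higher or 20% lower by counts, kept their direction. The median log2 ratio of the members stayed between -0.02 and 0.03. Some members nearer to a log2 ratio of 0 changed sign. By FPKM, Parp1 went from 0.05 to -0.26, Brca2 from 0.05 to -0.22 and Mre11a from -0.07 to 0.08. With overlapping genes summed, Fanci went from 0.17 to -0.04 and Rad54l from 0.14 to -0.09. The medians of the 7 groups moved by less than the counting interval of their typical member, and 1 changed sign, that of homologous recombination and crosslink repair, from 0.05 to -0.03 with overlapping genes summed. Such sums take in reads of genes outside the module, which made up most of the sums of Rad54l and Fanci. The number of members with an interval above 1 was 8 or 9 and below 1 it was 6 to 8. The members at least 2-fold higher numbered 1, and 0 with a pseudocount of 2 CPM or a floor of 5 CPM, which leaves out Nhej1. With that floor the members at least 25% higher numbered 1. With FPKM in place of counts, without an interval and with 0.5 added in FPKM, 4 members were at least 25% higher and 4 at least 20% lower. The members that passed only by FPKM were Chek2 (0.76) and Fanca (0.34) above 0, and Trp53bp1 (-0.54), Rnf168 (-0.37) and Aen (-0.36) below 0 on the log2 scale. Sums with overlapping genes were added after the data were seen. All expressed genes at least 2-fold apart numbered 100 higher and 24 lower, 173 and 57 with a pseudocount of 0.1 CPM, 33 and 5 with 2 CPM, 49 and 4 at the 5 CPM floor, and 305 and 184 by FPKM. At least 25% higher or 20% lower they numbered 939 and 504, and by FPKM 1487 and 1150. No paired analysis was possible because each genotype has 1 library. Depth limits Nhej1 and Gdf15, which have under 50 reads in each library.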
